A study of Homo sapiens with 12 samples.

Results

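The HOX genes encode homeodomain transcription factors that give cells of the embryo their position along the head-to-tail axis. They lie in 4 clusters, HOXA to HOXD, and genes of like position in different clusters (paralogs) carry the same number. Low numbers sit at the 3′ end of a cluster and act early and toward the head, and high numbers sit at the 5′ end and act late and toward the tail, as worked out mainly in mouse and fly. Cells keep much of their HOX pattern in culture, where Polycomb proteins hold silent clusters closed and Trithorax proteins keep active ones open. The sympathetic neuron lineage, in whose immature cells neuroblastoma arises, comes from the trunk neural crest, a region that uses HOX genes of the middle paralog groups. The genes described here are the protein-coding rows of the expression table named HOXA, HOXB, HOXC or HOXD and a number. They come to 39 of 58735 genes, with 11 in HOXA, 10 in HOXB, 9 in HOXC and 9 in HOXD.

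RNA was sequenced from total RNA of 2 human neuroblastoma lines, each with a short hairpin RNA against TSPYL5 (shL5 in the titles, genotype label TSPYL5 knockdown) or a control hairpin (shNC, genotype label WT). No other treatment was labelled, and each of the 4 groups held 3 libraries. One line is SK-N-SH in every label, and the other is SK_N_BE2 in the titles but SH-SY5Y in the remaining labels, so groups are called by their titles: SK_N_BE2 shL5, SK_N_SH shL5, SK_N_BE2 shNC and SK_N_SH shNC. Nothing in the labels tells whether the replicates of a group were grown apart, so the p-values speak of the variation among these libraries alone, and that may be technical. Levels are FPKM, fragments scaled by gene length and by a size factor of each library, which is near its depth but not equal to it. Genes of different length can thus be compared, and errors are SD over 3 libraries.

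The targeted gene went against its label in 1 of the lines. TSPYL5, the gene the hairpin is directed at, averaged 12.8 ± 0.474 FPKM in SK_N_BE2 shL5 and 17.7 ± 0.629 in SK_N_SH shL5, against 24.7 ± 0.918 in SK_N_BE2 shNC and 12.9 ± 0.649 in SK_N_SH shNC, so the libraries labelled SK_N_SH shL5 had more of it than their controls. MYCN, an oncogene amplified in some neuroblastomas, had no read in SK_N_BE2 shL5 and averaged 1028 FPKM in SK_N_SH shL5, against 1040.4 in SK_N_BE2 shNC and 0.0408 in SK_N_SH shNC. Over 15856 genes, SK_N_SH shL5 and SK_N_BE2 shNC libraries correlated at 0.986 to 0.987, and SK_N_BE2 shL5 and SK_N_SH shNC libraries at 0.960 to 0.975, while shL5 and shNC libraries of the same labelled line correlated at 0.692 to 0.724. Every group below is therefore named by its label only. The hairpin, the line and the identity of the libraries cannot be told apart in the comparisons within a labelled line. The libraries held 15425460 to 19249018 reads each.

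HOX expression in these libraries came almost entirely from HOXC and HOXD. Of the 24189 reads on the 39 genes in the 12 libraries, HOXC (chr12:53938765-54056030 on GRCh38) took 15818 reads, or 65.4%, and HOXD (chr2:176092891-176190907) took 8338, or 34.5%. HOXB (chr17:48528526-48729178) took 30 reads and HOXA (chr7:27092993-27200106) took 3. In all, 16 of the 39 genes had no read in any library, 9 of them in HOXA, 5 in HOXB, and HOXC12 and HOXD12. The remaining 23 had at least 1 read, and 9 reached the mean of 0.5 FPKM over the 12 libraries that was asked of a gene before it was tested: HOXC4, HOXC5, HOXC6, HOXC8, HOXC9, HOXC10, HOXD4, HOXD8 and HOXD9.

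**Figure D1:**
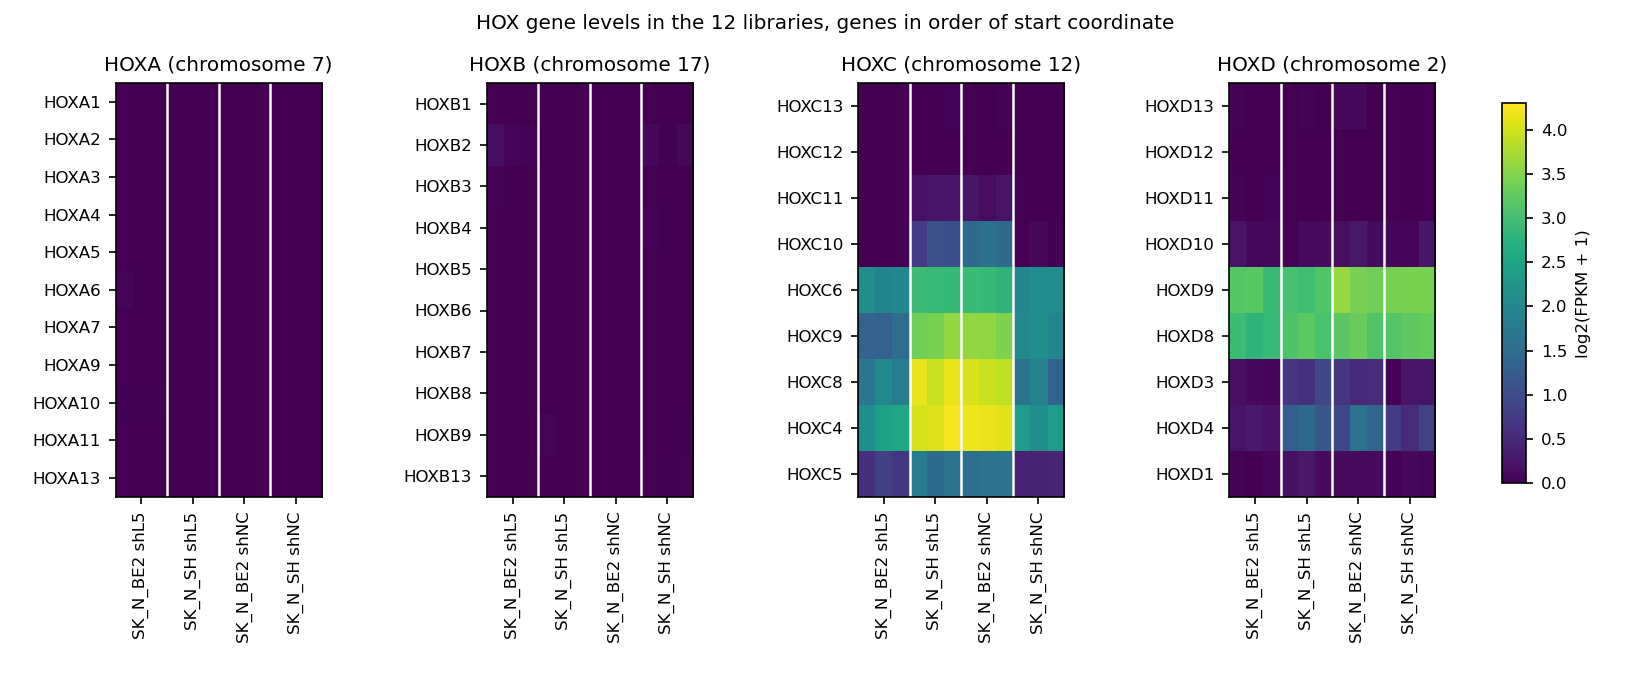
Heat map of log2(FPKM + 1) for the 39 HOX genes (rows, in order of start coordinate within each cluster) in the 12 libraries (columns, 3 per group, white lines between groups). HOXA and HOXB are dark throughout, HOXC is bright in SK_N_SH shL5 and SK_N_BE2 shNC, and HOXD8 and HOXD9 are bright in all 4 groups.

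The reads in HOXA and HOXB were too few to compare. In HOXA, HOXA6 had 1 read and HOXA10 had 2, all in SK_N_BE2 shL5. In HOXB, HOXB2 had 15 reads, HOXB3 had 6, HOXB13 had 4, HOXB9 had 3 and HOXB4 had 2. HOXB2, a hindbrain gene of the second paralog group, was listed at 0.119, 0.0507 and 0.0239 FPKM in SK_N_BE2 shL5 and had no read in SK_N_SH shL5 or SK_N_BE2 shNC, while the SK_N_SH shNC libraries had 0.0689, 0.0226 and 0.0687. No read in the 3 SK_N_SH shL5 libraries allows a level of up to 0.0254 FPKM by a floor of 3 reads over the group, which covers counting error only. Other annotated genes inside these clusters were as silent: 22 of 23 within HOXA and 15 of 17 within HOXB had no read. Of the 10 protein-coding genes nearest to each cluster, 5 on each side, 9 had reads beside HOXA and 9 beside HOXB, with 382851 reads over the 12 libraries beside HOXA and 231934 beside HOXB.

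HOXC separated the libraries into high and low ones. The summed level of its 9 genes was 12.2 ± 0.979 FPKM in SK_N_BE2 shL5 and 52.3 ± 3.23 in SK_N_SH shL5, against 52.5 ± 2.10 in SK_N_BE2 shNC and 12.8 ± 0.385 in SK_N_SH shNC. HOXD varied less: its summed level was 14.4 ± 0.945 FPKM in SK_N_BE2 shL5 and 17.4 ± 0.408 in SK_N_SH shL5, against 20.7 ± 1.21 in SK_N_BE2 shNC and 19.1 ± 0.724 in SK_N_SH shNC. HOXC thus made up 45.7 ± 3.66% of all HOX FPKM in SK_N_BE2 shL5 and 75.0 ± 1.41% in SK_N_SH shL5, against 71.7 ± 0.474% in SK_N_BE2 shNC and 40.0 ± 1.28% in SK_N_SH shNC. In bulk RNA, fewer cells that express a gene and less RNA of it per cell cannot be told apart.

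**Figure D2:**
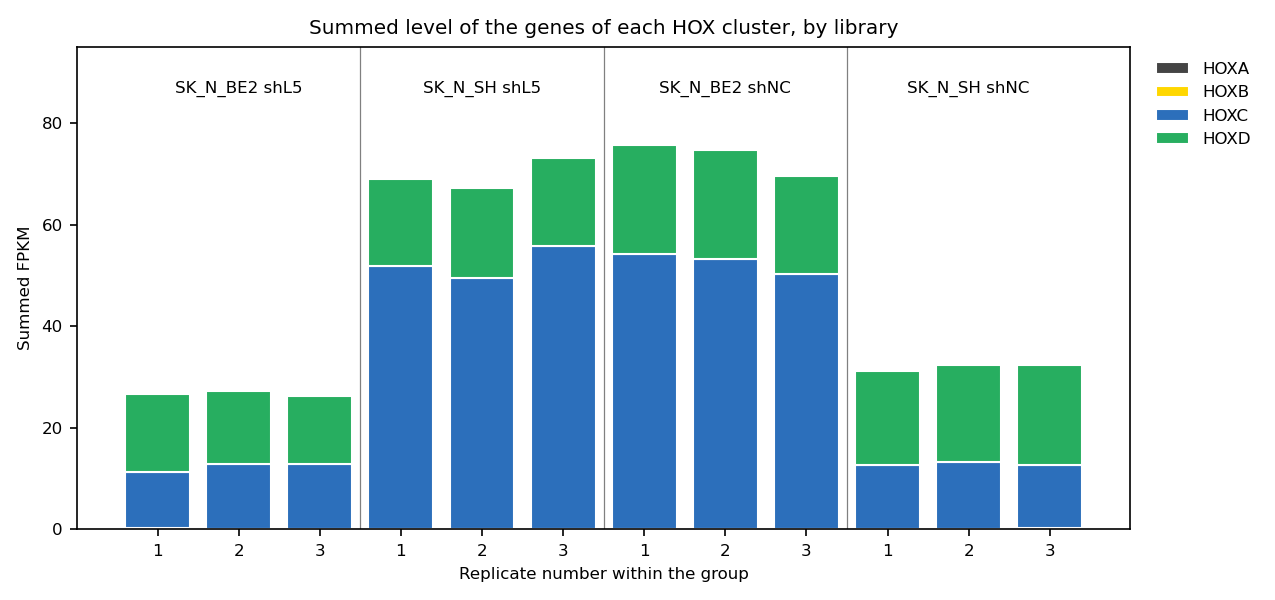
Summed FPKM of the genes of each HOX cluster (stacked bars) in each of the 12 libraries, numbered by replicate within the 4 groups. The HOXC share is tall in SK_N_SH shL5 and SK_N_BE2 shNC (means 52.3 and 52.5 FPKM) and short in SK_N_BE2 shL5 and SK_N_SH shNC (12.2 and 12.8), and the HOXA and HOXB shares are too small to see.

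HOXC8 and HOXC9 are genes of the thoracic region, used by motor neurons and other trunk cells. HOXC8 (ENSG00000037965, chr12:54009106-54012362, plus strand) stood at 2.23, 3.10 and 2.54 FPKM in SK_N_BE2 shL5 and at 17.0, 14.3 and 17.0 in SK_N_SH shL5, against 15.4, 14.5 and 13.7 in SK_N_BE2 shNC and 2.10, 2.77 and 1.61 in SK_N_SH shNC. HOXC9 (ENSG00000180806, chr12:53994895-54003337) stood at 1.55, 1.48 and 1.93 FPKM in SK_N_BE2 shL5 and at 9.33, 9.72 and 11.1 in SK_N_SH shL5, against 11.1, 11.1 and 10.1 in SK_N_BE2 shNC and 3.07, 3.34 and 2.93 in SK_N_SH shNC. Both genes were high in SK_N_SH shL5 and SK_N_BE2 shNC and low in the other two groups, with no overlap between high and low libraries. On the log2 scale of FPKM + 1, HOXC8 had the largest fold of the tested HOX genes in SK_N_SH, though HOXC10 had a larger ratio of means. HOXC8 was 7.45-fold higher in shL5 than in shNC libraries by the ratio of means (log2 fold of FPKM + 1 2.45, SE 0.13, limma adjusted p = 6.49e-09). In SK_N_BE2 it was 5.54-fold lower in shL5 (log2 fold -2.11, SE 0.13, limma adjusted p = 2.31e-08). HOXC9 was 3.23-fold higher in SK_N_SH shL5 than in SK_N_SH shNC (limma adjusted p = 1.09e-08) and 6.51-fold lower in SK_N_BE2 shL5 than in SK_N_BE2 shNC (limma adjusted p = 2.70e-10).

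HOXC4, HOXC5 and HOXC6, which mark the cervical to upper trunk levels, followed the same split. HOXC4 (ENSG00000198353, chr12:54016931-54056030) had the highest group mean of any HOX gene. It stood at 3.40, 4.52 and 4.77 FPKM in SK_N_BE2 shL5 and at 15.4, 15.8 and 18.0 in SK_N_SH shL5, against 17.2, 17.1 and 16.3 in SK_N_BE2 shNC and 4.12, 3.38 and 4.16 in SK_N_SH shNC. It was 4.22-fold higher in SK_N_SH shL5 than in SK_N_SH shNC (limma adjusted p = 1.15e-08) and 3.99-fold lower in SK_N_BE2 shL5 than in SK_N_BE2 shNC (limma adjusted p = 1.39e-08), without overlap of libraries in either line. HOXC6 (ENSG00000197757, chr12:53990624-54030823) had the smallest ratio between high and low groups of the tested genes in the cluster. Its libraries had 3.39, 2.84 and 2.96 FPKM in SK_N_BE2 shL5 and 6.74, 6.43 and 6.37 in SK_N_SH shL5, against 6.63, 6.34 and 5.95 in SK_N_BE2 shNC and 2.97, 3.29 and 3.37 in SK_N_SH shNC. It was 2.03-fold higher in SK_N_SH shL5 (limma adjusted p = 1.54e-07) and 2.06-fold lower in SK_N_BE2 shL5 (limma adjusted p = 1.32e-07), each against the controls of that line.

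HOXC5 (ENSG00000172789, chr12:54032853-54035358) was the lowest of these genes. It had 0.492, 0.754 and 0.618 FPKM in SK_N_BE2 shL5 and 2.49, 1.88 and 2.08 in SK_N_SH shL5, against 1.94, 2.11 and 2.11 in SK_N_BE2 shNC and 0.327, 0.352 and 0.385 in SK_N_SH shNC. It was 6.06-fold higher in SK_N_SH shL5 than in SK_N_SH shNC (limma adjusted p = 7.73e-08) and 3.30-fold lower in SK_N_BE2 shL5 than in SK_N_BE2 shNC (limma adjusted p = 9.40e-07). Some exon bases are annotated to more than 1 gene: 59.9% of those of HOXC5, 17.8% of HOXC4, 15.7% of HOXC6, 9.82% of HOXC10 and 9.71% of HOXC9. They are shared among these genes or with further annotated genes of the cluster. Their separate levels are uncertain to that extent, since no source used here gives how such reads were assigned or whether strand was used. HOXC8, HOXD8 and HOXD9 share no exon base with another gene.

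Toward the 5′ end, HOXC10 was the tested HOXC gene of highest number. HOXC10 (ENSG00000180818, chr12:53985065-53990279), a lumbar gene named here after its values were seen, had no read in SK_N_BE2 shL5 and 0.706, 1.08 and 1.07 FPKM in SK_N_SH shL5, against 1.78, 2.01 and 1.79 in SK_N_BE2 shNC and 0, 0.0681 and 0.0230 in SK_N_SH shNC. It was 31.4-fold higher in SK_N_SH shL5 than in SK_N_SH shNC, where it rested on 4 reads, and at least 76.3-fold lower in SK_N_BE2 shL5 than in SK_N_BE2 shNC. HOXC10 passed the filter through its high groups alone and so had to differ. HOXC11, next toward the 5′ end, was not tested and had no read in SK_N_BE2 shL5 or SK_N_SH shNC. It averaged 0.182 FPKM in SK_N_SH shL5 and 0.157 in SK_N_BE2 shNC. HOXC13 had 1 read in each of these 2 groups. By the rule of a group mean of at least 1 FPKM, the gene of highest number in the cluster was HOXC9 in SK_N_BE2 shL5 and SK_N_SH shL5, against HOXC10 in SK_N_BE2 shNC and HOXC9 in SK_N_SH shNC. In SK_N_SH shL5, HOXC10 missed this limit narrowly, at a mean of 0.952 FPKM, so the rule does not set that group clearly apart from SK_N_BE2 shNC.

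**Figure D3:**
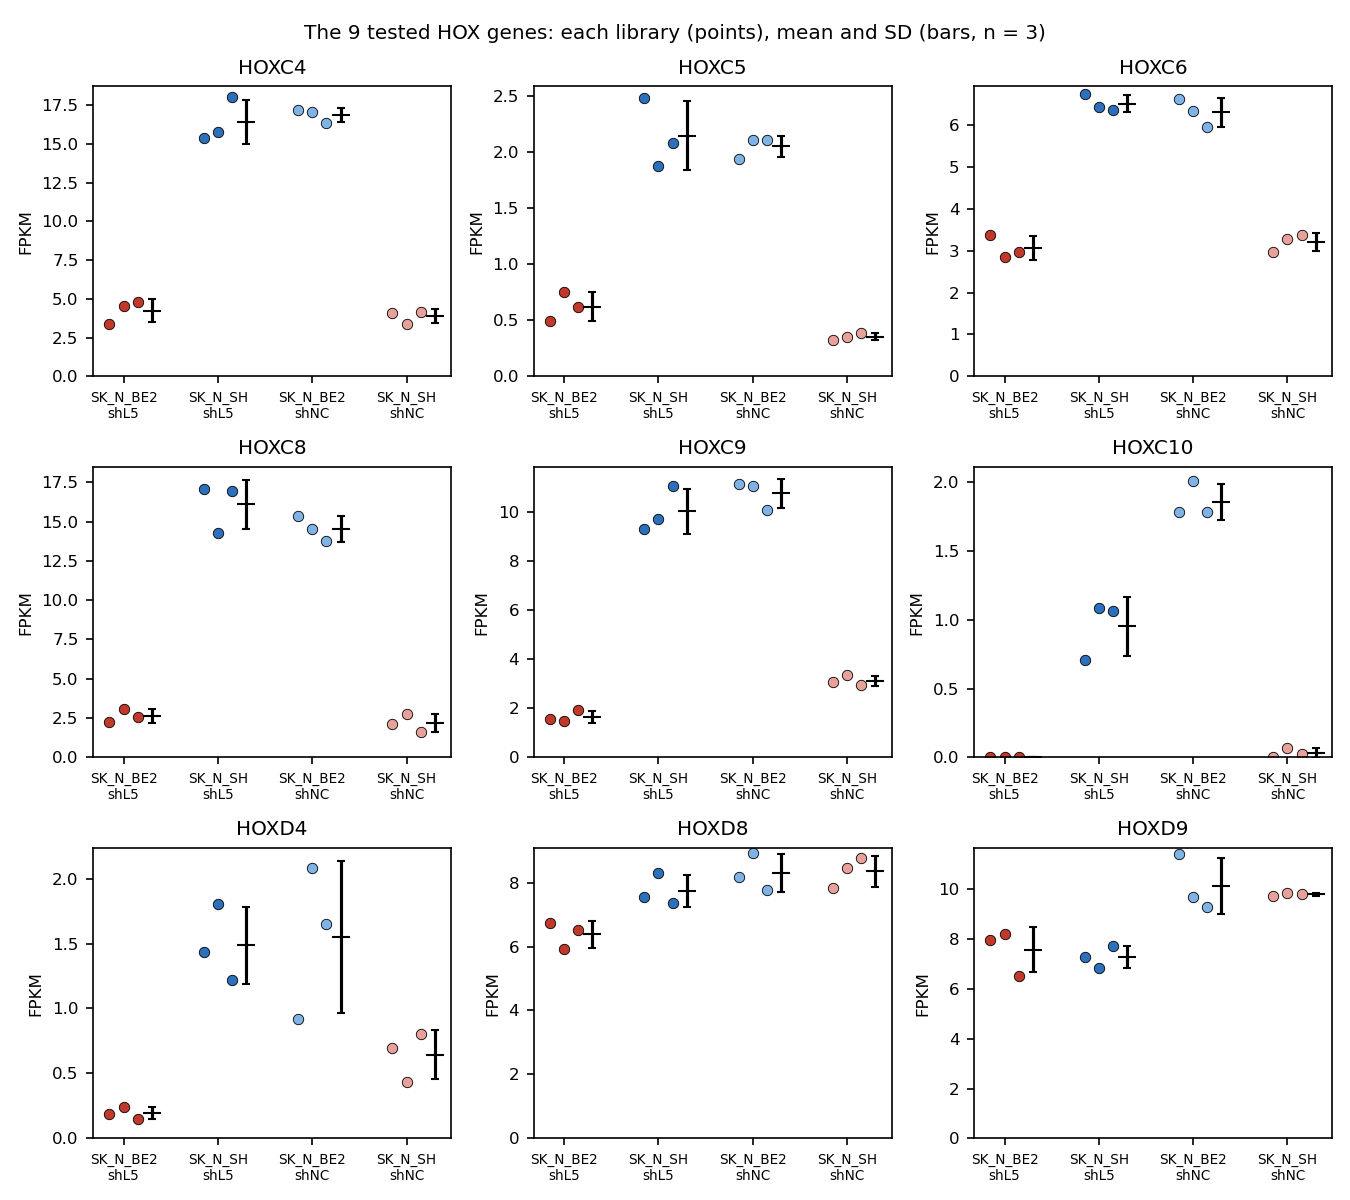
FPKM of the 9 tested HOX genes in each library (points) with the mean and SD of each group (n = 3), each axis starting at 0. The HOXC genes and HOXD4 are high in SK_N_SH shL5 and SK_N_BE2 shNC, whereas HOXD9 is lower in both shL5 groups (6.53 to 8.20 FPKM) than in both shNC groups (9.30 to 11.4).

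HOXD9 and HOXD8 did not follow the HOXC split. HOXD9 (ENSG00000128709, chr2:176122720-176124937, plus strand), a gene of limb and trunk patterning, stood at 7.98, 8.20 and 6.53 FPKM in SK_N_BE2 shL5 and at 7.29, 6.85 and 7.73 in SK_N_SH shL5, against 11.4, 9.68 and 9.30 in SK_N_BE2 shNC and 9.73, 9.84 and 9.81 in SK_N_SH shNC. All 6 libraries labelled shL5 were below all 6 labelled shNC. The ratio of shL5 to shNC means was 0.745 in SK_N_SH (log2 fold -0.38, SE 0.09, limma adjusted p = 0.00154) and 0.747 in SK_N_BE2 (log2 fold -0.38, SE 0.09, limma adjusted p = 0.00164). The difference between the 2 effects was 0.00 on the log2 scale (95% interval -0.26 to 0.27, limma adjusted p = 0.976). HOXD9 was lower in each line under all 19 alternative settings, with adjusted p up to 0.00821 in SK_N_SH and 0.0123 in SK_N_BE2. Of the 15856 genes tested, 116 (0.732%) were lower with the shL5 label in both lines and 156 were higher in both, and HOXD9 was the only HOX gene among them.

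HOXD8 (ENSG00000175879, chr2:176129694-176132695), a middle member of the cluster, had the most even level of the tested HOX genes. It stood at 6.73, 5.92 and 6.51 FPKM in SK_N_BE2 shL5 and at 7.54, 8.31 and 7.37 in SK_N_SH shL5, against 8.19, 8.93 and 7.76 in SK_N_BE2 shNC and 7.84, 8.45 and 8.77 in SK_N_SH shNC. The SK_N_BE2 shL5 libraries were below those of the other 3 groups, which overlapped. HOXD8 was 1.30-fold lower in SK_N_BE2 shL5 than in SK_N_BE2 shNC (log2 fold -0.33, SE 0.07, limma adjusted p = 0.000735). In SK_N_SH no difference passed the threshold (log2 fold -0.10, 95% interval -0.25 to 0.05, limma adjusted p = 0.197). The difference between these effects was -0.23 (limma adjusted p = 0.0388), and it missed the threshold in 9 of 18 alternative settings, with adjusted p up to 0.0978. Replicate 2 of SK_N_BE2 shL5, replicate 2 of SK_N_SH shL5, replicates 1 and 2 of SK_N_BE2 shNC and replicates 1 and 2 of SK_N_SH shNC were the libraries whose removal, one at a time, ended this call.

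HOXD4, at the 3′ side of HOXD, took part in the HOXC-like split. HOXD4 (ENSG00000170166, chr2:176151222-176153226), a hindbrain and cervical gene, had 0.190, 0.243 and 0.152 FPKM in SK_N_BE2 shL5 and 1.44, 1.81 and 1.22 in SK_N_SH shL5, against 0.919, 2.08 and 1.65 in SK_N_BE2 shNC and 0.696, 0.434 and 0.804 in SK_N_SH shNC. It was 2.31-fold higher in SK_N_SH shL5 than in SK_N_SH shNC (limma adjusted p = 0.00478) and 7.95-fold lower in SK_N_BE2 shL5 than in SK_N_BE2 shNC (limma adjusted p = 6.74e-05). Its exon bases lie for 80.5% within AC009336.2, a second protein-coding row, so its own level is uncertain. HOXD3, its neighbour, had 0.125, 0.0667 and 0.0472 FPKM in SK_N_BE2 shL5 and 0.608, 0.535 and 0.880 in SK_N_SH shL5, against 0.577, 0.413 and 0.459 in SK_N_BE2 shNC and 0.0302, 0.194 and 0.181 in SK_N_SH shNC. HOXD3 was too low to be tested, shared 74.1% of its exon bases, and did not overlap between shL5 and shNC libraries in either line.

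The other HOXD genes were near the limit of detection. HOXD10 had 0.165, 0.0659 and 0.0622 FPKM in SK_N_BE2 shL5 and 0.0211, 0.0854 and 0.0947 in SK_N_SH shL5, against 0.130, 0.218 and 0.0897 in SK_N_BE2 shNC and 0.0598, 0.0393 and 0.199 in SK_N_SH shNC, and its groups overlapped. HOXD1, the most 3′ member, had group means of 0.0282 to 0.158 FPKM. HOXD13 had 8 reads, 6 of them in SK_N_BE2 shNC, and HOXD11 had 2 reads, both in SK_N_BE2 shL5. Without the filter on low values, 35897 genes were tested: HOXD3, HOXC11 and HOXD1 were higher in SK_N_SH shL5 than in SK_N_SH shNC (limma adjusted p = 0.000347, 3.87e-05 and 0.0204), and HOXD3 and HOXC11 were lower in SK_N_BE2 shL5 than in SK_N_BE2 shNC (limma adjusted p = 0.00141 and 0.000111).

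**Figure D4:**
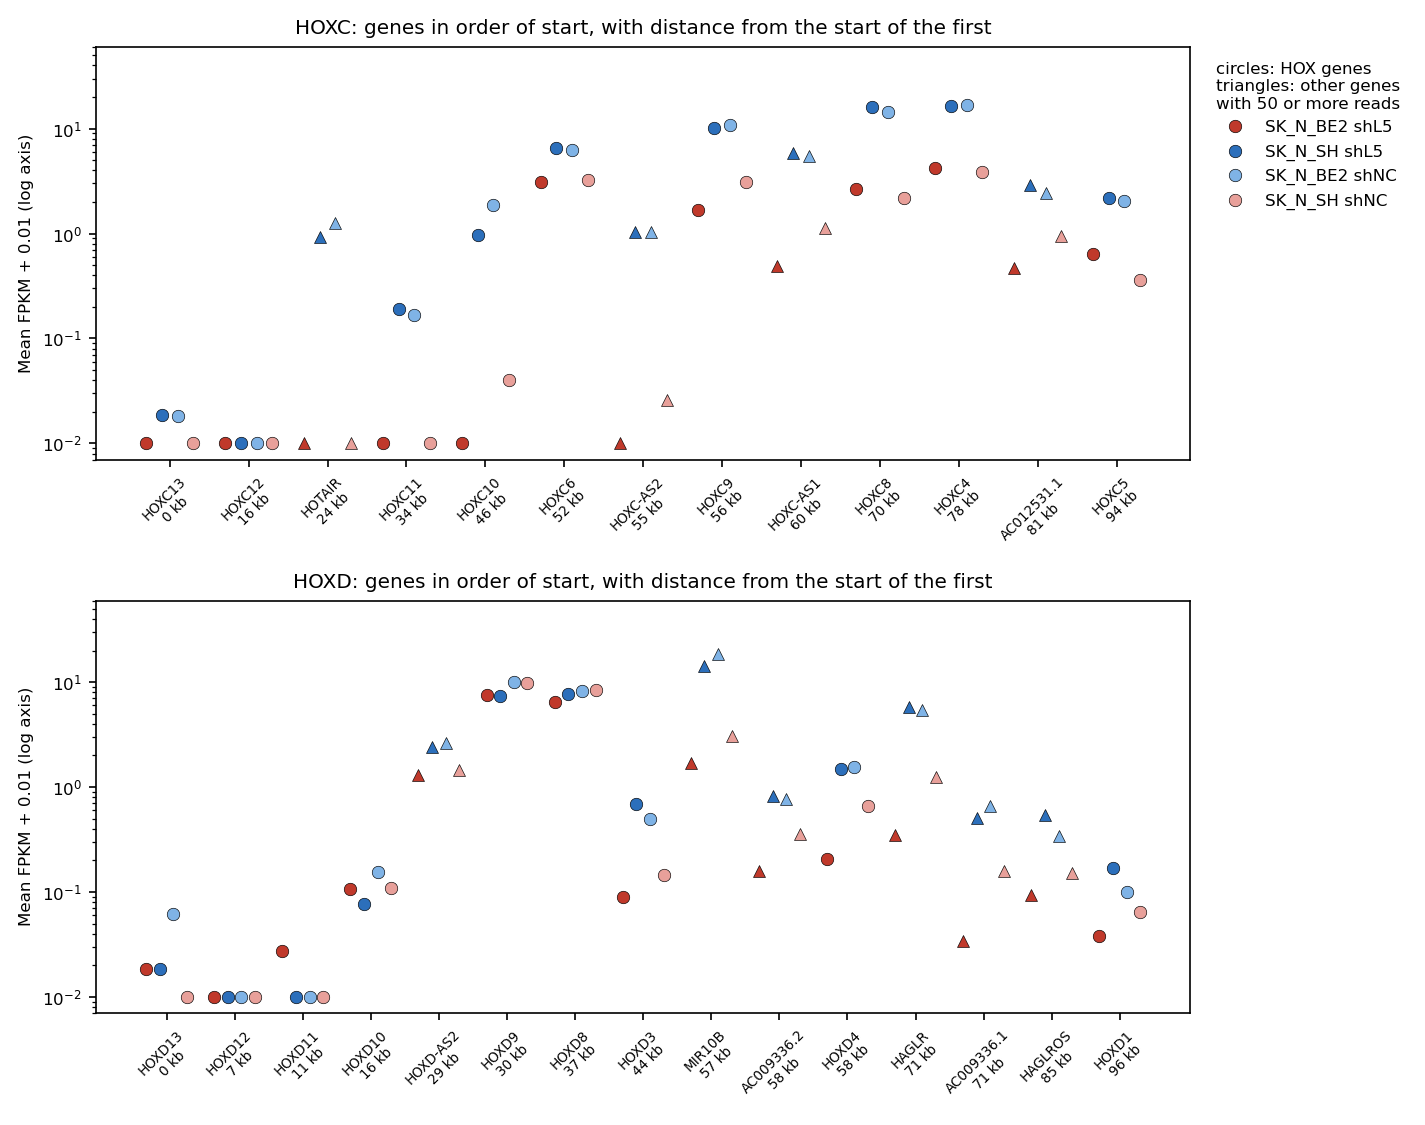
Mean FPKM plus 0.01 (log axis, n = 3 libraries) of HOX genes (circles) and of other genes inside the cluster with 50 or more reads (triangles), in order of start, with the distance in kb from the start of the first gene, for HOXC (top) and HOXD (bottom). HOXD8 and HOXD9 have close levels in the 4 groups, while genes on the 3′ side of them, among them MIR10B and HAGLR, are high in SK_N_SH shL5 and SK_N_BE2 shNC.

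Noncoding genes inside HOXC and HOXD were read too. Within HOXC, 10 of 14 other annotated genes had reads, 1895 in all, and 5 were tested: 4 were higher in SK_N_SH shL5 than in SK_N_SH shNC and 4 were lower in SK_N_BE2 shL5 than in SK_N_BE2 shNC. Of all 15856 genes 79.8% were called in SK_N_SH, with 40.7% of all genes higher and 39.0% lower, and 80.0% were called in SK_N_BE2, with 39.9% higher and 40.2% lower. HOTAIR, a long noncoding RNA transcribed antisense between HOXC11 and HOXC12, had no read in SK_N_BE2 shL5 and 0.918 ± 0.170 FPKM in SK_N_SH shL5, against 1.24 ± 0.220 in SK_N_BE2 shNC and no read in SK_N_SH shNC. That is at least 44.8-fold higher in SK_N_SH shL5 and at least 56.8-fold lower in SK_N_BE2 shL5, each against the controls of that line. HOXC-AS2 averaged 1.03 FPKM in SK_N_SH shL5 and 1.03 in SK_N_BE2 shNC, against 0.0160 in SK_N_SH shNC and no read in SK_N_BE2 shL5. HOTAIR and HOXC-AS2 passed the filter through their high groups alone and so had to differ. Their calls are no support for these counts. HOXC-AS1, antisense near HOXC9, averaged 0.480 ± 0.0173 FPKM in SK_N_BE2 shL5 and 5.91 ± 1.10 in SK_N_SH shL5, against 5.53 ± 0.515 in SK_N_BE2 shNC and 1.11 ± 0.398 in SK_N_SH shNC. Its mean in SK_N_BE2 shL5, and that of AC012531.1 there (0.463 FPKM), were also under the 0.5 FPKM of the filter.

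Within HOXD, 7 of 8 other annotated genes had reads, 4706 in all. The 4 that were tested were all higher in SK_N_SH shL5 than in SK_N_SH shNC and all lower in SK_N_BE2 shL5 than in SK_N_BE2 shNC, where 40.7% of all genes were higher in SK_N_SH and 40.2% lower in SK_N_BE2. AC009336.2 averaged 0.148 FPKM in SK_N_BE2 shL5 and 0.344 in SK_N_SH shNC and passed the filter through its high groups alone. It also shares exon bases with HOXD4, so its place in this count is no support for it. HAGLR was under the filter in SK_N_BE2 shL5. Neither HOXD9 nor HOXD8 was higher in SK_N_SH shL5. HAGLR, an antisense RNA over the 3′ part of the cluster, averaged 0.338 ± 0.0511 FPKM in SK_N_BE2 shL5 and 5.84 ± 0.264 in SK_N_SH shL5, against 5.44 ± 0.169 in SK_N_BE2 shNC and 1.23 ± 0.0697 in SK_N_SH shNC. It was 4.75-fold higher in SK_N_SH shL5 (limma adjusted p = 1.29e-10) and 16.1-fold lower in SK_N_BE2 shL5 (limma adjusted p = 6.33e-12). HOXD-AS2, an antisense RNA whose span covers HOXD9 and HOXD8, was 1.65-fold higher in SK_N_SH shL5 (limma adjusted p = 0.00127) and 2.03-fold lower in SK_N_BE2 shL5 (limma adjusted p = 0.000101). Of the 10 protein-coding genes around HOXD 9 were tested, and 8 were higher and none lower in SK_N_SH shL5 than in SK_N_SH shNC, while 1 was higher and 7 were lower in SK_N_BE2 shL5 than in SK_N_BE2 shNC. Around HOXC 7 were tested, and 4 were higher and 2 lower in SK_N_SH shL5, while 2 were higher and 4 lower in SK_N_BE2 shL5. The called shares, 8 of 9 in each line around HOXD and 6 of 7 in each line around HOXC, stand beside 79.8% of all genes in SK_N_SH and 80.0% in SK_N_BE2.

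MIR10B, the gene of a microRNA that lies beside HOXD4, averaged 1.70 ± 1.25 FPKM in SK_N_BE2 shL5 and 14.4 ± 1.75 in SK_N_SH shL5, against 18.4 ± 2.03 in SK_N_BE2 shNC and 3.08 ± 1.85 in SK_N_SH shNC. It was 4.67-fold higher in SK_N_SH shL5 (limma adjusted p = 0.000403) and 10.9-fold lower in SK_N_BE2 shL5 (limma adjusted p = 1.93e-05). The row covers 110 bases with 212 reads in the 12 libraries, which were not made with a small RNA kit, so it counts RNA over the hairpin and not the mature microRNA. The hairpin is shown because it is the row between HOXD8 and HOXD4 with the highest level. Its RefSeq sequence (chr2:176150303-176150412, plus strand, GRCh38.p14) carries hsa-miR-10b-3p, 22 bases, in capitals. The source used listed no other mature form, so any in the rest of the hairpin is not marked.
MIR10B: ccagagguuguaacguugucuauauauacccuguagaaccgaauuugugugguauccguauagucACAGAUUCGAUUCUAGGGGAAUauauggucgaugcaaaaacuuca

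The promoter of HOXD8 is shown as that of the HOX gene with the most even level. It is the 250 bases before its RefSeq start (chr2:176129455-176129704, plus strand, GRCh38.p14), with each CG in capitals, and the last 11 bases lie in an annotated exon.
HOXD8: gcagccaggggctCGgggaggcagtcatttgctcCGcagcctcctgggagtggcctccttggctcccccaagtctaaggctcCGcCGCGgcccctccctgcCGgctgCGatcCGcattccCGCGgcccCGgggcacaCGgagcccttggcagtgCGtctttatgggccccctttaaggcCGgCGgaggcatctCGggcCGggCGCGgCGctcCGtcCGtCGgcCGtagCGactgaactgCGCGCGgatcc
This window is 72.4% G and C and holds 28 CG pairs. The median over 35116 RefSeq promoters was 11 pairs, and that over the 27 HOX windows of 20 genes in the same table was 19. Searched on both strands, the window held no TATAAA, which 10.7% of all promoters hold. It held no CCAAT, found in 32.0% of promoters, and no CACGTG, found in 6.34%. It also held no TGATNNAT, a site bound by HOX together with PBX proteins and found in 6.47% of promoters. This says only that these letters are not in the window.

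In SK_N_SH, shL5 against shNC, 7 of the 9 tested HOX genes were higher, HOXD9 was lower and HOXD8 did not pass the threshold of an adjusted p of 0.05. Over all 15856 genes 79.8% were called, 40.7% higher and 39.0% lower, so a call by itself says little in this comparison. The median log2 fold was 0.92 over the 9 HOX genes and 0.02 over all genes. In SK_N_BE2, shL5 against shNC, all 9 were lower, where 80.0% of all genes were called, 39.9% higher and 40.2% lower. The median log2 fold was -1.07 over the HOX genes and -0.02 over all genes. HOXC5, HOXC10 and HOXD4 had group means under 0.5 FPKM in at least 1 group and passed the filter through the others, so these counts and medians describe the genes that passed and not all 39.

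The effect of the label differed between the lines for 8 of the 9 genes, HOXD9 being the exception, where 84.9% of all genes differed, 41.8% in the positive and 43.1% in the negative direction. The difference, SK_N_BE2 effect minus SK_N_SH effect, was largest for HOXC8 (-4.55, SE 0.18, limma adjusted p = 3.03e-10) and HOXC4 (-3.61, SE 0.14, limma adjusted p = 3.22e-10). It sets SK_N_BE2 shL5 and SK_N_SH shNC together against SK_N_SH shL5 and SK_N_BE2 shNC. The hairpin, the line and the identity of the libraries cannot be told apart in it. Between the control groups, SK_N_BE2 shNC against SK_N_SH shNC, 7 of 9 were higher and HOXD8 and HOXD9 did not pass. Of all genes 79.6% were called there, 40.7% higher and 38.9% lower. The log2 folds were -0.01 for HOXD8 (95% interval -0.16 to 0.14) and 0.04 for HOXD9 (-0.15 to 0.23). Between the hairpin groups, SK_N_BE2 shL5 against SK_N_SH shL5, 8 of 9 were lower and HOXD9 did not pass (log2 fold 0.04, 95% interval -0.15 to 0.23). Of all genes 80.2% were called there, 40.0% higher and 40.2% lower. HOXC10 passed the filter through its high groups alone and so had to differ. HOXC5 and HOXD4 had means under the filter in at least 1 group. The place of these genes in the counts of this paragraph is no support for them.

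Across the labelled lines the comparisons called fewer genes. In SK_N_SH shL5 against SK_N_BE2 shNC, HOXC10 and HOXD9 were lower and 7 of 9 HOX genes did not pass, where 5.39% of all genes were called, 2.26% higher and 3.12% lower. HOXC10 averaged 0.952 ± 0.213 FPKM in SK_N_SH shL5 and 1.86 ± 0.130 in SK_N_BE2 shNC (log2 fold -0.56, SE 0.09, limma adjusted p = 0.00453). HOXD9 averaged 7.29 ± 0.440 FPKM in SK_N_SH shL5 and 10.1 ± 1.13 in SK_N_BE2 shNC (log2 fold -0.42, SE 0.09, limma adjusted p = 0.0165). Leaving out replicate 1 or 2 of SK_N_SH shL5, or replicate 1 of SK_N_BE2 shNC, ended the HOXD9 call (limma adjusted p up to 0.0745), and a pseudocount of 0.1 in place of 1 ended that of HOXC10 (limma adjusted p = 0.0616). For HOXC8, the widest HOXC interval, the log2 fold was 0.14 with a 95% interval of -0.15 to 0.42, so differences of these sizes cannot be told from none.

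In SK_N_BE2 shL5 against SK_N_SH shNC, 5 of 9 HOX genes were called, where 44.1% of all genes were. HOXC9 averaged 1.65 ± 0.240 FPKM in SK_N_BE2 shL5 and 3.11 ± 0.208 in SK_N_SH shNC, 1.88-fold lower (log2 fold -0.63, limma adjusted p = 0.000108). HOXD8 (-0.34, limma adjusted p = 0.00190), HOXD9 (-0.34, limma adjusted p = 0.00812) and HOXD4 (-0.45, limma adjusted p = 0.0382) were lower in SK_N_BE2 shL5 too. HOXC5 was higher, at 0.621 ± 0.131 FPKM in SK_N_BE2 shL5 and 0.355 ± 0.0293 in SK_N_SH shNC (limma adjusted p = 0.0284). The calls of HOXC5 and HOXD4 held in 10 and 11 of 18 alternative settings, with limma adjusted p up to 0.107 for HOXC5 and 0.126 for HOXD4. The HOXC5 call ended without replicate 2 or 3 of SK_N_BE2 shL5 or without any 1 of the SK_N_SH shNC libraries, and the HOXD4 call without any 1 of the SK_N_BE2 shL5 libraries, replicate 1 of SK_N_SH shL5, or replicate 1 or 3 of SK_N_SH shNC. HOXC8, which was not called, passed the threshold without replicate 2 of SK_N_SH shNC (limma adjusted p = 0.0382). The 7 comparisons share libraries and are not independent of each other.

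**Figure D5:**
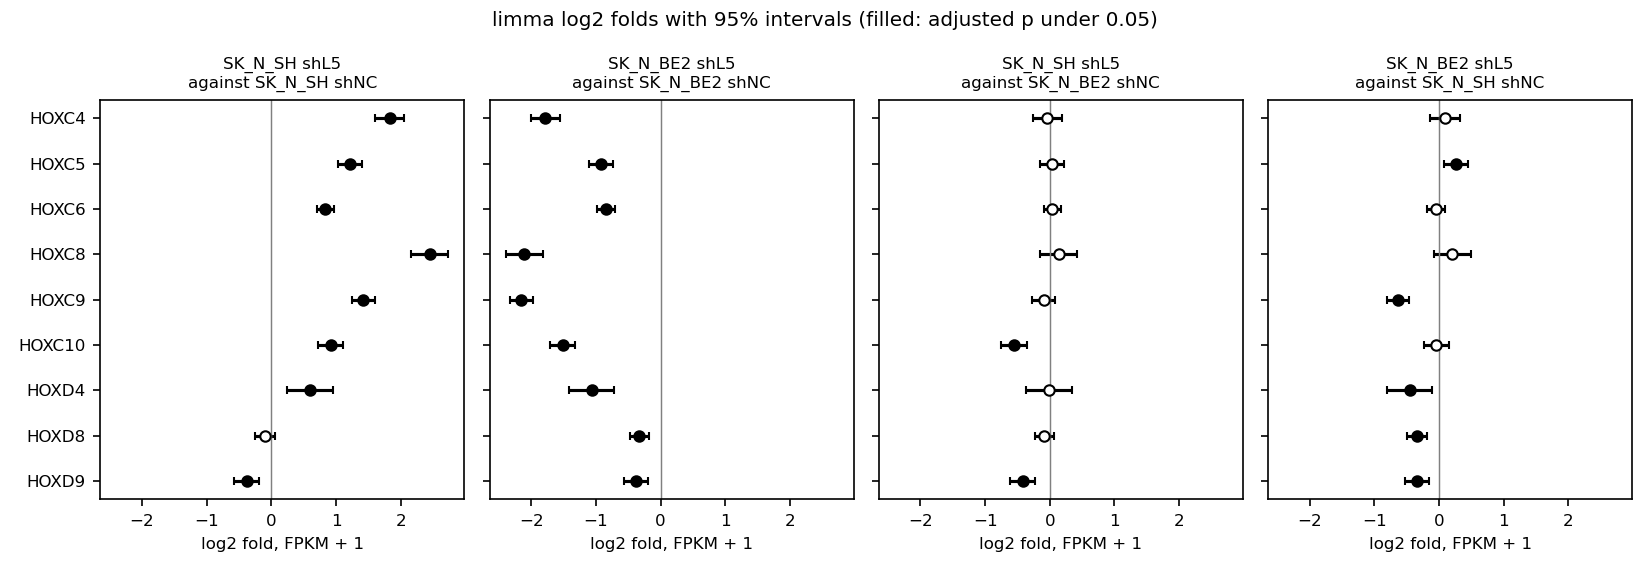
Log2 folds of FPKM + 1 with 95% intervals from limma for the 9 tested HOX genes in 4 comparisons, filled where the adjusted p is under 0.05. HOXC genes lie to the right of 0 in SK_N_SH and to the left in SK_N_BE2, and HOXD9 lies to the left in all 4 panels, at -0.38, -0.38, -0.42 and -0.34.

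Partners of HOX proteins moved in both directions. Of 8 tested TALE homeodomain genes (PBX, MEIS and PKNOX, which bind DNA together with HOX proteins), 3 were higher and 5 lower in SK_N_SH shL5, and 4 were higher and 2 lower in SK_N_BE2 shL5, each against the controls of that line. Over all genes 40.7% were higher and 39.0% lower in SK_N_SH shL5, and 39.9% higher and 40.2% lower in SK_N_BE2 shL5. MEIS3 averaged 15.6 ± 0.717 FPKM in SK_N_BE2 shL5 and 3.60 ± 0.149 in SK_N_SH shL5, against 3.73 ± 0.0585 in SK_N_BE2 shNC and 17.6 ± 1.63 in SK_N_SH shNC. MEIS3 was high where HOXC was low. PKNOX1 went the other way, with log2 folds of 0.72 in SK_N_SH and -0.61 in SK_N_BE2.

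Among genes that keep HOX clusters silent or active, Polycomb had 10 of 22 higher and 6 lower in SK_N_SH shL5, and 5 higher and 14 lower in SK_N_BE2 shL5. The shares over all genes were 40.7% higher and 39.0% lower in SK_N_SH, and 39.9% higher and 40.2% lower in SK_N_BE2. EZH2, the H3K27 methyltransferase, averaged 10.5 ± 1.89 FPKM in SK_N_BE2 shL5 and 32.3 ± 0.652 in SK_N_SH shL5, against 27.6 ± 0.0679 in SK_N_BE2 shNC and 11.2 ± 2.13 in SK_N_SH shNC. CBX2, a reader of that mark, had log2 folds of 1.70 in SK_N_SH and -1.64 in SK_N_BE2. A list of 14 genes for Trithorax and H3K27 demethylation also held factors of other classes, among them AFF1 and DOT1L. Of these 14, 8 were higher and 2 lower in SK_N_SH shL5, and 2 higher and 10 lower in SK_N_BE2 shL5. In all, 10 of these 14 were called in SK_N_SH and 12 in SK_N_BE2, where 79.8% and 80.0% of all genes were. AFF1, of the super elongation complex, had log2 folds of 1.87 in SK_N_SH and -1.89 in SK_N_BE2, and DOT1L, the H3K79 methyltransferase, had 1.61 in SK_N_SH and -1.32 in SK_N_BE2.

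The retinoic acid pathway, which induces 3′ HOX genes in embryonic cells, had 2 of 12 tested genes higher and 10 lower in SK_N_SH shL5, and 7 higher and 4 lower in SK_N_BE2 shL5. Of all genes, 40.7% were higher and 39.0% lower in SK_N_SH, and 39.9% were higher and 40.2% lower in SK_N_BE2. CRABP1, a cytoplasmic retinoic acid-binding protein, averaged 0.0759 ± 0.0316 FPKM in SK_N_BE2 shL5 and 37.7 ± 1.69 in SK_N_SH shL5, against 50.04 ± 4.45 in SK_N_BE2 shNC and no read in SK_N_SH shNC. It ran against most of the list in SK_N_SH, passed the filter through its high groups alone and so had to differ. RDH10, among the 10 lower in SK_N_SH shL5, averaged 23.7 ± 2.03 FPKM in SK_N_BE2 shL5 and 1.62 ± 0.297 in SK_N_SH shL5, against 1.73 ± 0.147 in SK_N_BE2 shNC and 13.9 ± 4.14 in SK_N_SH shNC. Of 14 other regulators of axial patterning 2 were expressed highly enough to test. GDF11, a signal for the trunk-to-tail transition in mouse, was higher with the shL5 label in both lines, with log2 folds of 0.41 in SK_N_SH and 0.25 in SK_N_BE2.

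Markers of cell state moved with the HOXC level. The 10 noradrenergic neuroblast markers were all higher in SK_N_SH shL5 and all lower in SK_N_BE2 shL5, each against the controls of that line. Over all genes, 40.7% were higher in SK_N_SH shL5 and 40.2% lower in SK_N_BE2 shL5. Their summed level was 70.6 to 86.6 FPKM in SK_N_BE2 shL5 and 1218 to 1311 in SK_N_SH shL5, against 1374 to 1420.3 in SK_N_BE2 shNC and 84.1 to 97.3 in SK_N_SH shNC. The 8 mesenchymal markers summed to 1219 to 1609 FPKM in SK_N_BE2 shL5 and 165 to 169 in SK_N_SH shL5, against 169 to 186 in SK_N_BE2 shNC and 1421 to 1742 in SK_N_SH shNC. Of these 8, 1 was higher and 6 lower in SK_N_SH shL5, and 7 were higher and 1 lower in SK_N_BE2 shL5. The gene that went the other way in both lines was TWIST1, a transcription factor, at 46.9 ± 9.81 FPKM in SK_N_BE2 shL5 and 125.7 ± 2.18 in SK_N_SH shL5, against 134 ± 5.67 in SK_N_BE2 shNC and 73.0 ± 5.11 in SK_N_SH shNC. COL1A1, a collagen chain, and POSTN, a matrix protein, had the highest means of the list in SK_N_BE2 shL5 and in SK_N_SH shNC. The 5 Schwann cell markers summed to at most 2.31 FPKM in any library, the 4 blood and endothelial markers to at most 1.29 and the 4 epithelial markers to at most 1.03. The part of the 2 cell states in the HOXC result was not tested.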

How the data were processed

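The authors deposited 1 table of FPKM per gene and library. The submitters' processing notes list the aligner HISAT2 (2.0.5), the counter featureCounts (1.5.0-p3) and the mouse build mm10, with no role or order. All 58735 rows are human genes whose start and end equal GENCODE release 29 on GRCh38, so that build is used here. FPKM times gene length came out as whole reads for 100% of values within 0.05 reads, in proportion to median-of-ratios size factors.

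Groups follow the sample titles. The members and gene lists were chosen with earlier results of these data known. The model was limma's (version 3.58.1, R 4.3.3), fitted to log2(FPKM + 1) over 15856 genes with a mean of at least 0.5 FPKM, with 4 group means, empirical Bayes moderation with a trend, two-sided tests and Benjamini-Hochberg adjustment over all genes. This log scale understates folds of low genes, so folds in words are ratios of mean FPKM. A group without reads is given a floor of 3 reads over the group. The steps were tested on simulated data.

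Values in every library are given for up to 5 genes per cluster with the highest group means, and up to 3 called members of each other list may be named. Some genes this rule names are not reported here. Alternatives were another pseudocount, filters, TPM scaling, a fit of the compared groups alone, a replicate block, leaving out each library and limma's voom on the recovered reads. Promoter and microRNA sequences are from RefSeq on GRCh38.p14.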

Additional observations from a re-analysis of the deposited data

Results flagged for a closer look

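The effect of the shL5 label differed between the lines for 8 HOX genes by a test of the difference itself (limma, SK_N_BE2 effect minus SK_N_SH effect, log2 scale of FPKM + 1). This contrast sets SK_N_BE2 shL5 and SK_N_SH shNC together against SK_N_SH shL5 and SK_N_BE2 shNC. MYCN had no read in SK_N_BE2 shL5 and 0.0408 FPKM in SK_N_SH shNC, against 1028 in SK_N_SH shL5 and 1040.4 in SK_N_BE2 shNC. The hairpin, the line and the identity of the libraries cannot be told apart in it. The differences were -4.55 for HOXC8, -3.61 for HOXC4, -3.57 for HOXC9, -2.43 for HOXC10, -2.13 for HOXC5, -1.68 for HOXC6, -1.66 for HOXD4 and -0.23 for HOXD8. That of HOXD8 passed the threshold in only 9 of 18 alternative settings. HOXC10 passed the filter on low values through its high groups alone and so had to differ, and HOXC5 and HOXD4 had group means under the filter in at least 1 group, so their place in this count is no support for it. In the 6 HOXC genes and HOXD4 every shL5 library was above the controls in SK_N_SH and below them in SK_N_BE2. The share of all genes whose libraries split without overlap was not computed, so this count cannot be read as particular to HOX genes. By the test of the difference, 84.9% of all genes tested differed between the lines.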

How the results depend on the processing

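The direction and call of HOXD9 and of all HOXC genes within each labelled line held under every alternative that tested them. A minimum mean of 2 FPKM left fewer genes to test, with 5 HOX genes called in SK_N_SH, 5 for the difference between lines, 5 between the shL5 groups, 4 between the shNC groups, 3 in SK_N_BE2 shL5 against SK_N_SH shNC and 1 in SK_N_SH shL5 against SK_N_BE2 shNC. Without a filter 3 were called in SK_N_BE2 shL5 against SK_N_SH shNC. In SK_N_SH shL5 against SK_N_BE2 shNC, a pseudocount of 0.1 and a fit of the compared groups alone each called 1. Leaving out 1 library gave 1 to 2 calls there, from 469 to 1006 of all genes against 854, and 3 to 5 in SK_N_BE2 shL5 against SK_N_SH shNC, and the cause was not tested. HOXD9 in SK_N_SH shL5 against SK_N_BE2 shNC missed the threshold in 4 of 19 alternatives, with adjusted p up to 0.0745.

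Of the single-gene values under the alternatives, 1120 kept direction and call, 29 lost the call, 1 gained it and 17 changed sign, all of these uncalled. With TPM scaling HOXC4 was -0.031 in SK_N_BE2 shL5 against SK_N_SH shNC, and HOXD9 was -0.097 for the difference between lines and -0.063 between the shL5 groups. This scaling moved the median of all genes by -0.12 in SK_N_BE2 and by -0.10 to -0.11 in the other comparisons with SK_N_BE2 shL5. With voom, chosen after seeing the data, HOXD4 was 0.0093 in SK_N_SH shL5 against SK_N_BE2 shNC. Without 1 library, HOXD4 ran there between -0.21 and 0.13 and HOXC5 between -0.035 and 0.10. HOXD9 ran between -0.050 and 0.094 for the difference between lines, between -0.010 and 0.13 between the shL5 groups and between -0.042 and 0.093 between the shNC groups, and HOXD8 between -0.059 and 0.032 between the shNC groups.

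Same-numbered libraries did not deviate together (18 pairs, r -0.0751 to 0.102, 5 closest to their own number). With a replicate block 8 HOX genes were called in SK_N_SH, 9 in SK_N_BE2 and 7 for the difference between lines, where HOXD8 lost its call (adjusted p = 0.0570), as did HOXC5 in SK_N_BE2 shL5 against SK_N_SH shNC (adjusted p = 0.0515). The count models that had been planned were not run. The deposited values are FPKM, and voom on the reads recovered from them was run in place of those models. Depth limits the HOXA and HOXB genes, which held 0 to 15 reads each.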
